A study of Homo sapiens with 60 samples.

Results

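The 29 genes described here encode enzymes of cholesterol synthesis and proteins that sense, carry or store sterols. They were chosen by symbol as members of the pathway, not by a measured value. All 29 were found among the 60675 genes of the count table, and all 29 were among the 16484 genes that passed the filter on low counts. RNA sequencing was run on HT29 cells, an established line from a human colorectal adenocarcinoma, after 24 h with water extracts of medicinal herbs. Single herbs were Aconiti Lateralis Radix Preparata (processed aconite root, called aconite), Bupleuri Radix (bupleurum), Cimicifugae Rhizoma (cimicifuga) and Citri Unshius Pericarpium (dried citrus peel). The formulas, which are mixtures of herbs, were Banhasasim-tang, Yijung-tang and Bojungikgi-tang. Doses were 20 µg/mL (low), 100 µg/mL (medium) and 500 µg/mL (high), and vehicle cells received DMSO alone (0.1% in the sample labels, 2% in the design text). Aconite, bupleurum, cimicifuga, citrus peel, Banhasasim-tang, Yijung-tang and vehicle had 3 libraries per group, whereas Bojungikgi-tang had 1 library per dose. The design text also states that the top dose was lowered for extracts that inhibited growth strongly, while 500 µg/mL is the labelled top dose of all 7 extracts. All groups share one cell line, and the labels do not say that replicates came from separate cultures, so the p-values rest on differences between libraries that may be only technical.

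Cholesterol is built from acetyl-CoA by way of mevalonate, isoprenoid diphosphates, squalene and lanosterol, and a branch of the isoprenoids feeds protein prenylation and dolichol. Much of the pathway is transcribed under SREBP2, the product of SREBF2. When sterols are plentiful, SCAP and the INSIG proteins hold SREBP2 in the endoplasmic reticulum, and when they are scarce it moves to the Golgi, where the proteases MBTPS1 and MBTPS2 release its active part. INSIG1 is itself a target of SREBP2 and so closes a feedback loop. Epithelial cells of the colon use the pathway for the membranes of dividing and secreting cells.

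Library totals ran from 10.35 to 40.05 M counts with a median of 23.83 M. Values are given as CPM, counts per M of a library's scaled total. Epithelial markers were present: 11 of 11 colon epithelial markers had a mean of at least 1 CPM, and summed to between 9990 and 13800 CPM per library. Most of the sum came from the keratins KRT8 (median 6180 CPM) and KRT18 (3390 CPM). LGALS4, KRT20 and VIL1 had medians of 562, 243 and 178 CPM. CDX1, CDX2, CDH17 and CEACAM5 were low, with medians of 1.16, 5.46, 5.31 and 6.22 CPM. Fibroblast markers summed to at most 3.0 CPM and endothelial markers to at most 2.67 CPM, with COL3A1, DCN, PDGFRA, VWF, CDH5 and KDR below 1 CPM in every library. Of the leukocyte markers, PTPRC, CD3E and CD79A were below 1 CPM throughout, CD14 lay between 2.01 and 4.52 CPM, and LYZ between 1310 and 2260 CPM. Sample codes begin with a number that is read here as a library set: vehicle stood in set B1, citrus peel and cimicifuga in set 5, bupleurum and aconite in set 6, Yijung-tang and Banhasasim-tang in set 7 and Bojungikgi-tang in set 8. Comparisons of doses therefore stay within a set, whereas in every comparison with vehicle the extract and the set cannot be told apart. Aconite high 2, Banhasasim-tang high 2, vehicle 1 and bupleurum medium 2 were known from earlier work on these data to stand apart. Ribosomal protein genes had median deviations of 0.46, 0.41, 0.23 and -0.12 log2 from the group mean in these 4 libraries. Whether their level follows RNA quality was not tested. Each deviation is from the mean of the library's own group, so a high library puts the others of its group below 0. The other high-dose libraries of aconite had -0.27 (replicate 1) and -0.19 (replicate 3). Those of Banhasasim-tang had -0.19 (replicate 1) and -0.22 (replicate 3). None was as large in size as 0.41, though all exceeded the size of that in bupleurum medium 2. Counts of called genes are also given without the 4 libraries where they change.

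Vehicle cells transcribed the whole pathway, at levels that spanned a wide range. Per kb of exon, the highest level was that of SQLE, the squalene epoxidase, at 187 ± 1.38 CPM per kb (SD, n = 3). DHCR7, which makes cholesterol from its last precursor, followed at 110.0 ± 3.86 CPM per kb, then the lanosterol demethylase CYP51A1 at 64.8 ± 0.544 and HMGCS1, the synthase that joins acetyl-CoA units into the precursor of mevalonate, at 52.4 ± 3.84 CPM per kb. HMGCS1, FDPS (50.8 ± 3.12) and INSIG1 (49.2 ± 0.198) did not differ in this order beyond their spread. At the low end were MBTPS2, one of the proteases that release SREBP2, at 1.93 ± 0.151 CPM per kb and SOAT1, which esterifies cholesterol for storage, at 0.655 ± 0.0857 CPM per kb. Over all 57 replicated libraries each gene stayed within a narrow band: the highest library exceeded the lowest 1.26-fold for MBTPS1 and 2.05-fold for PMVK, the extremes among the 29 genes.

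High doses lowered part of the pathway by a small amount. In the mean of the high-minus-low differences of the 6 replicated extracts, 8 of the 29 genes fell and 0 rose (edgeR quasi-likelihood test, adjusted p under 0.05), where 13.1% of all tested genes were called, 6.61% lower and 6.52% higher. The 8 were LSS, INSIG1, TM7SF2, SC5D, HMGCS1, STARD4, SQLE and CYP51A1, and their mean falls lay between 4.6% (CYP51A1) and 11.4% (LSS and HMGCS1). Of the 29 genes, 22 had a negative value, against 50.1% of all tested genes, and their median log2 fold change was -0.07, against 0.00 over all genes. At an unadjusted p under 0.05 stood 15 of the 29, and DESeq2 also called 8 lower and 0 higher. Counts at unadjusted p and counts in DESeq2 are printed, here and below, without the share over all genes. They therefore have no background to be read against. In the same contrast all 40 ribosomal protein genes had positive values (median 0.11, 2 called), and of the 11 colon epithelial markers VIL1 was lower (-0.16 ± 0.02) and CEACAM5 higher (0.28 ± 0.05). The part of these in the result was not tested. In bulk RNA, fewer cells of a kind and less RNA per cell cannot be told apart.

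**Figure D1:**
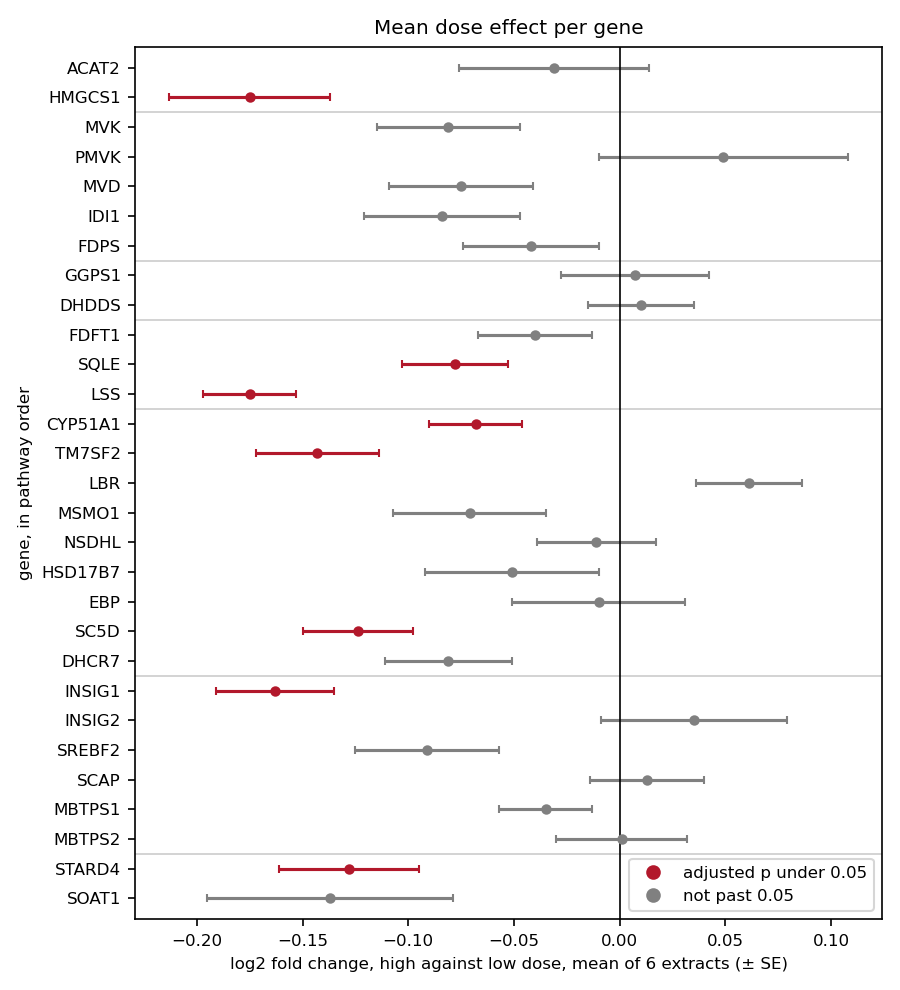
Mean log2 fold change of the high against the low dose over 6 extracts (x axis, ± SE) for the 29 genes in pathway order (y axis, grey lines between roles), with red points for edgeR adjusted p under 0.05. LSS, HMGCS1 and INSIG1 lie farthest left, LBR lies farthest right at 0.06, and 22 of 29 points are left of 0.

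The count of 8 depended on which extracts and libraries entered. It was 15, with 14 lower and LBR higher, without the 4 libraries named above, where 15.8% of all genes were called, and 5 with aconite left out (4.55% of all genes). In the extracts of set 5 alone (0.898% of all genes) and of set 6 alone (6.31%), 2 genes were called, LSS and INSIG1 each time, and in those of set 7 alone (0.601%) 0 were called in edgeR (LSS adjusted p = 0.142). Within all 3 sets, however, the 8 genes had negative values: LSS had -0.17 ± 0.04, -0.25 ± 0.04 and -0.11 ± 0.04, and SC5D -0.14 ± 0.05, -0.12 ± 0.05 and -0.11 ± 0.05 log2 (SE) in sets 5, 6 and 7.

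LSS, the lanosterol synthase that closes the sterol ring, showed the most regular pattern. After aconite it had 103, 91.98 and 102 CPM at the high dose, against 123, 125 and 129 CPM at the low dose. Citrus peel gave 107, 106 and 104 CPM at the high dose, against 121, 125 and 124 CPM at the low dose. With both extracts each high-dose library lay below each low-dose library, by a margin wider than the spread within either group. Cimicifuga gave 116, 113 and 113 CPM at the high dose and 127, 119 and 122 CPM at the low dose, and bupleurum 115, 109.5 and 112 CPM at the high dose and 129, 119 and 123 CPM at the low dose. These groups did not overlap either, although the gap was narrow. In the formulas the ranges met: Banhasasim-tang had 120.05, 101 and 115 CPM at the high dose and 112, 126 and 125 CPM at the low dose, and Yijung-tang 119, 114 and 112 CPM at the high dose and 129, 124 and 117 CPM at the low dose. All 18 high-dose libraries were below the low-dose mean of their own extract, which held for no other of the 29 genes. The mean log2 fold change was -0.18 ± 0.02 (SE, edgeR adjusted p = 7.63e-08). Vehicle libraries, at 118, 122 and 121 CPM, lay among the low-dose values.

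The start of LSS is printed here with those of INSIG1, TM7SF2 and SC5D, which had the smallest adjusted p among genes with a promoter that could be shown, and of SREBF2, which encodes the factor that drives the pathway. Each runs from 250 bases before to 50 after the RefSeq gene start (GRCh38.p14), 5′ to 3′ on the gene's strand. Capitals mark the letters CCAAT, the box of the factor NF-Y, on either strand (ATTGG on the other), and TCACNCCAC, a sterol regulatory element.
LSS (chr21:46228725-46229024, minus strand): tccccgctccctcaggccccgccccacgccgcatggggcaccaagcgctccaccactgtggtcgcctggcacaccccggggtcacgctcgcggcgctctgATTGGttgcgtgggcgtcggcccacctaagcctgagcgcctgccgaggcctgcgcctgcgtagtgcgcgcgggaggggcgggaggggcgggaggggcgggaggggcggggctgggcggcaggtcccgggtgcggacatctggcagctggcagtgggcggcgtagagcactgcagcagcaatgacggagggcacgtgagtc
INSIG1 (chr7:155297628-155297927, plus strand): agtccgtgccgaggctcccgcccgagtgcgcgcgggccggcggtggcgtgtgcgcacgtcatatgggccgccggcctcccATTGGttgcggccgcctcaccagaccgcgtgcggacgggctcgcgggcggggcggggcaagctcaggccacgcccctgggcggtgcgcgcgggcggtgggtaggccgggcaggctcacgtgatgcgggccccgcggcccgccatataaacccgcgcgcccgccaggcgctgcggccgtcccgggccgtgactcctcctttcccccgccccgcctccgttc
TM7SF2 (chr11:65111622-65111921, plus strand): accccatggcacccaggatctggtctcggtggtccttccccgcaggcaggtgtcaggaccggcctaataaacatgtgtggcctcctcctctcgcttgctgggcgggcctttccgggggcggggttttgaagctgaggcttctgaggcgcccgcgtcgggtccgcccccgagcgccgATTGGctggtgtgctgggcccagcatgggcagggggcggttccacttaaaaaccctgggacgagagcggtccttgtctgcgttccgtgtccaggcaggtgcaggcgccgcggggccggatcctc
SC5D (chr11:121292521-121292820, plus strand): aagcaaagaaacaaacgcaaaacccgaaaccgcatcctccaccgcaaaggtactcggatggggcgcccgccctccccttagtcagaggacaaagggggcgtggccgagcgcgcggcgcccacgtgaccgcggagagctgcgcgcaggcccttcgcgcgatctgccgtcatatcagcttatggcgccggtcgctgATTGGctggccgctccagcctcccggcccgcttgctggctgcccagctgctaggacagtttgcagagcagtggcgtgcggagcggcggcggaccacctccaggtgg
SREBF2 (chr22:41832855-41833154, plus strand): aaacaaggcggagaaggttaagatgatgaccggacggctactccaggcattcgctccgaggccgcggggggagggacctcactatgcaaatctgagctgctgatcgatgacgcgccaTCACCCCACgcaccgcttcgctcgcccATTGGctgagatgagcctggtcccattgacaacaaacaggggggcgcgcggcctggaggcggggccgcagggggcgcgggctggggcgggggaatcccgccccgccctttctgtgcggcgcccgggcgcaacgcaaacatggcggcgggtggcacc
All 5 windows hold 1 CCAAT box, read as ATTGG, at 150 bases before the start in LSS, 170 in INSIG1, 74 in TM7SF2, 56 in SC5D and 106 in SREBF2. SREBF2 also holds the sterol regulatory element as TCACCCCAC, 133 bases before the start and not overlapping the box. RefSeq windows were matched for 26 of the 29 genes (not for ACAT2, FDFT1 and SQLE). CCAAT stood in 16 of the 26 (61.5%), against 34.6% of 35116 promoters, and TCACNCCAC in 1 of 26 (3.85%), against 1.13% of promoters. The 35116 promoters outnumber the 16484 genes that passed the filter on low counts, as all 29 genes did. The background was therefore not matched for expression. These are matches of letters in a short window. In the annotation, exons of 11 of the 29 genes overlap genes on the opposite strand. They are LSS, HMGCS1, MVK, CYP51A1, STARD4, SREBF2, ACAT2, IDI1, FDPS, GGPS1 and FDFT1. ACAT2 has the most, 2996 bases summed over its 3 partners, with 4299 exon bases of its own. Exons of 4 genes, TM7SF2, CYP51A1, GGPS1 and MBTPS2, overlap genes on the same strand. The strand setting of the counting is not given in the sources used here, so reads of such partners may be counted with these genes.

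INSIG1, the retention protein of the sterol sensor, fell in the mean of the extracts and, taken alone, with aconite. After aconite it had 149.99, 151 and 134 CPM at the high dose, against 189, 173 and 168 CPM at the low dose. Bupleurum gave 163, 149 and 148 CPM at the high dose, against 188, 169 and 168 CPM at the low dose. In both, all 3 high-dose libraries were the lower ones. With cimicifuga the values were 159.7, 146 and 146 CPM at the high dose and 185, 166 and 163 CPM at the low dose, and with citrus peel 159, 139 and 150.2 CPM at the high dose and 179.8, 162 and 169.9 CPM at the low dose. The groups were again separate. With Yijung-tang they overlapped, at 177, 169.8 and 157 CPM at the high dose and 192, 173 and 184 CPM at the low dose. Banhasasim-tang had 188, 194 and 172 CPM at the high dose and 191, 179 and 178 CPM at the low dose, with no lower group. The mean log2 fold change over the 6 extracts was -0.16 ± 0.03 (edgeR adjusted p = 3.57e-05), and 16 of 18 high-dose libraries were below the low-dose mean of their extract.

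HMGCS1, at the entry of the pathway, fell, with a mean of -0.18 ± 0.04 log2 (edgeR adjusted p = 0.00121), with 17 of 18 high-dose libraries below their low-dose mean. After cimicifuga it had 229, 209 and 205 CPM at the high dose, against 263, 253 and 245 CPM at the low dose, groups that did not overlap but whose gap was narrower than the spread at the high dose. After aconite it had 202, 265 and 189.9 CPM at the high dose and 284, 248 and 265 CPM at the low dose. Here replicate 2 of the high dose stood with the low-dose libraries and the other two far below them. ACAT2, which makes the acetoacetyl-CoA that HMGCS1 uses, had -0.03 ± 0.04 log2 and did not pass the test. With aconite ACAT2 had 79.98, 145.5 and 86.5 CPM at the high dose, against 99.3, 100.4 and 112 CPM at the low dose. With Banhasasim-tang it had 98.7, 123.9 and 91.4 CPM at the high dose, against 102, 96.2 and 92.95 CPM at the low dose. In both, replicate 2 of the high dose, which stood apart over all genes, was the high one. Its counts may also hold reads of the opposite-strand genes that overlap its exons.

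Among the late enzymes, SC5D, the sterol C5 desaturase, fell in the mean of the extracts (-0.12 ± 0.03 log2, edgeR adjusted p = 0.000806), with single values between -0.16 and -0.11. Bupleurum gave 119, 119.7 and 118 CPM at the high dose, against 126, 128 and 129 CPM at the low dose. Yijung-tang gave 134, 128 and 124 CPM at the high dose, against 139, 139 and 139 CPM at the low dose. In both the groups were separate, and 17 of 18 high-dose libraries overall were below their low-dose mean, the exception being aconite high 2 at 138 CPM.

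TM7SF2 and LBR, which both encode a sterol C14 reductase, had values of opposite sign. TM7SF2 fell, with a mean of -0.14 ± 0.03 log2 (edgeR adjusted p = 0.000595). It had 38.02, 36.4 and 38.3 CPM at the high dose of bupleurum, against 44.6, 43.3 and 42.5 CPM at the low dose, and 38.9, 33.8 and 37.5 CPM at the high dose of Yijung-tang, against 41.03, 42.4 and 42.5 CPM at the low dose. All high-dose libraries were the lower ones there, whereas the groups overlapped with aconite, at 43.9, 42.8 and 41.9 CPM at the high dose and 41.9, 41.4 and 44.5 CPM at the low dose. LBR, also a protein of the inner nuclear membrane that binds lamin B, had a mean of 0.06 ± 0.03 log2 (adjusted p = 0.0914). It had 213, 224 and 219 CPM at the high dose of aconite and 206, 194 and 203 CPM at the low dose, and 213, 205 and 205 CPM at the high dose of cimicifuga and 195, 199 and 198 CPM at the low dose. In aconite, cimicifuga and bupleurum its 3 high-dose libraries were above the 3 low-dose ones, and only 3 of 18 high-dose libraries were below their low-dose mean. LBR was the gene called higher (0.06 ± 0.02, adjusted p = 0.015) without the 4 libraries named above. The difference between both genes was not tested.

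STARD4, which carries cholesterol between membranes, fell, with a mean of -0.13 ± 0.03 log2 (edgeR adjusted p = 0.00724), with 17 of 18 high-dose libraries below their low-dose mean. Aconite gave 64.7, 59.9 and 64.99 CPM at the high dose, against 77.5, 68.3 and 69.5 CPM at the low dose, and bupleurum 68.2, 64.4 and 61.8 CPM at the high dose, against 69.05, 70.2 and 71.04 CPM at the low dose. With both, the groups did not overlap. Its call was lost with aconite left out (adjusted p = 0.0563). SQLE (-0.08 ± 0.02, adjusted p = 0.03) and CYP51A1 (-0.07 ± 0.02, adjusted p = 0.0319) had the weakest calls. SQLE was no longer called with aconite, cimicifuga or citrus peel left out, nor without the 4 libraries (adjusted p = 0.0508), and CYP51A1 not with aconite, cimicifuga, citrus peel or Yijung-tang left out.

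**Figure D2:**
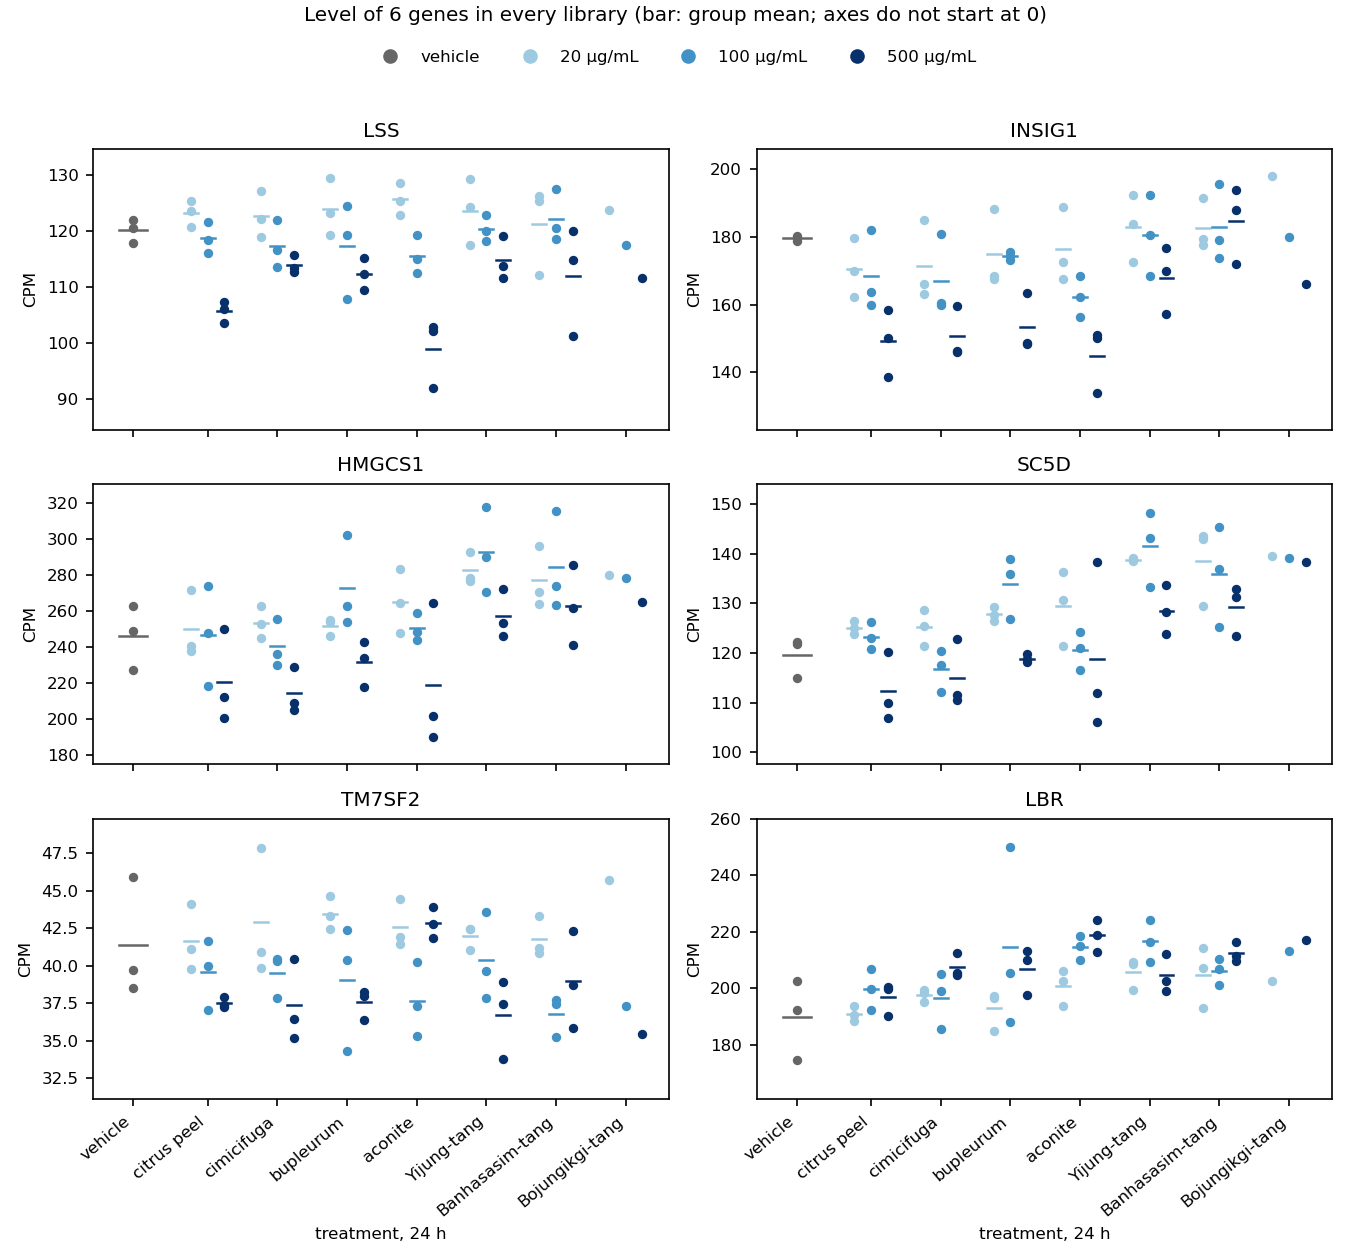
CPM (y axes, which do not start at 0) of LSS, INSIG1, HMGCS1, SC5D, TM7SF2 and LBR in every library, by treatment (x axis) and dose (colour, pale to dark from 20 to 500 µg/mL), with bars for means of groups of 3. Dark points mostly sit low in the panels of LSS, INSIG1, HMGCS1, SC5D and TM7SF2, but not in INSIG1 with Banhasasim-tang, in TM7SF2 with aconite, or for aconite high 2 in HMGCS1 (265 CPM) and SC5D (138 CPM), and they sit high in LBR with aconite and cimicifuga.

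By role, the calls came from most steps. The entry enzymes had 1 of 2 lower, the enzymes of squalene and ring closure 2 of 3, those from lanosterol to cholesterol 3 of 9, the sensing genes 1 of 6 and the handling genes 1 of 2. Of the 5 enzymes from mevalonate to farnesyl diphosphate 0 were called in edgeR and DESeq2 (3 at unadjusted p under 0.05), with 4 negative values and a median of -0.08: MVK -0.08 ± 0.03, MVD -0.07 ± 0.03, IDI1 -0.08 ± 0.04, FDPS -0.04 ± 0.03 and PMVK 0.05 ± 0.06 log2. GGPS1, which makes the lipid of prenylated proteins, and DHDDS, which makes dolichol, had 0.01 ± 0.04 and 0.01 ± 0.02 log2. The highest GGPS1 levels were in aconite high 2 (64.5 CPM) and Banhasasim-tang high 2 (55.55 CPM), libraries that stood apart over all genes. DHCR7 (-0.08 ± 0.03, adjusted p = 0.0695) lay just outside the threshold, as did SREBF2. NSDHL and EBP, of the middle of the sterol chain, averaged -0.01 ± 0.03 and -0.01 ± 0.04 log2. The other genes that did not pass the test were MSMO1 (-0.07 ± 0.04) and HSD17B7 (-0.05 ± 0.04), which act in the removal of methyl groups from the sterol, FDFT1, the squalene synthase (-0.04 ± 0.03), and SOAT1 (-0.14 ± 0.06).

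The sensing genes other than INSIG1 did not pass the test. SREBF2 had -0.09 ± 0.03 log2 (edgeR adjusted p = 0.0696) and was negative with all 6 extracts. In aconite it had 311, 206 and 323 CPM at the high dose and 316, 325 and 315 CPM at the low dose, and in Banhasasim-tang 304, 239.7 and 299 CPM at the high dose and 298, 294 and 303 CPM at the low dose. Replicate 2 of each high dose, a library that stood apart over all genes, was the low one there. INSIG2, the second retention protein, averaged 0.04 ± 0.04 log2. With aconite it had 28.9, 46.9 and 29.3 CPM at the high dose and 29.5, 26.8 and 28.3 CPM at the low dose, so that replicate 2 alone was high, and its log2 fold change of 0.29 ± 0.11 became 0.04 ± 0.09 without that library. SCAP, MBTPS1 and MBTPS2 had 0.01 ± 0.03, -0.04 ± 0.02 and 0.00 ± 0.03 log2.

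A negative dose effect was seen in all 6 extracts for 8 of the genes: HMGCS1, SQLE, LSS, CYP51A1, SC5D, DHCR7, SREBF2 and STARD4. Over all tested genes 7.34% had one. The sign alone is counted here. SQLE with bupleurum was at -0.001 ± 0.061 log2, with means of 812 CPM at the high and 811 CPM at the low dose. For SREBF2 with Banhasasim-tang, replicate 2 of the high dose (239.7 CPM) was the low one. Replicates 1 and 3, at 304 and 299 CPM, were not below the low-dose libraries as a group (298, 294 and 303 CPM).

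**Figure D3:**
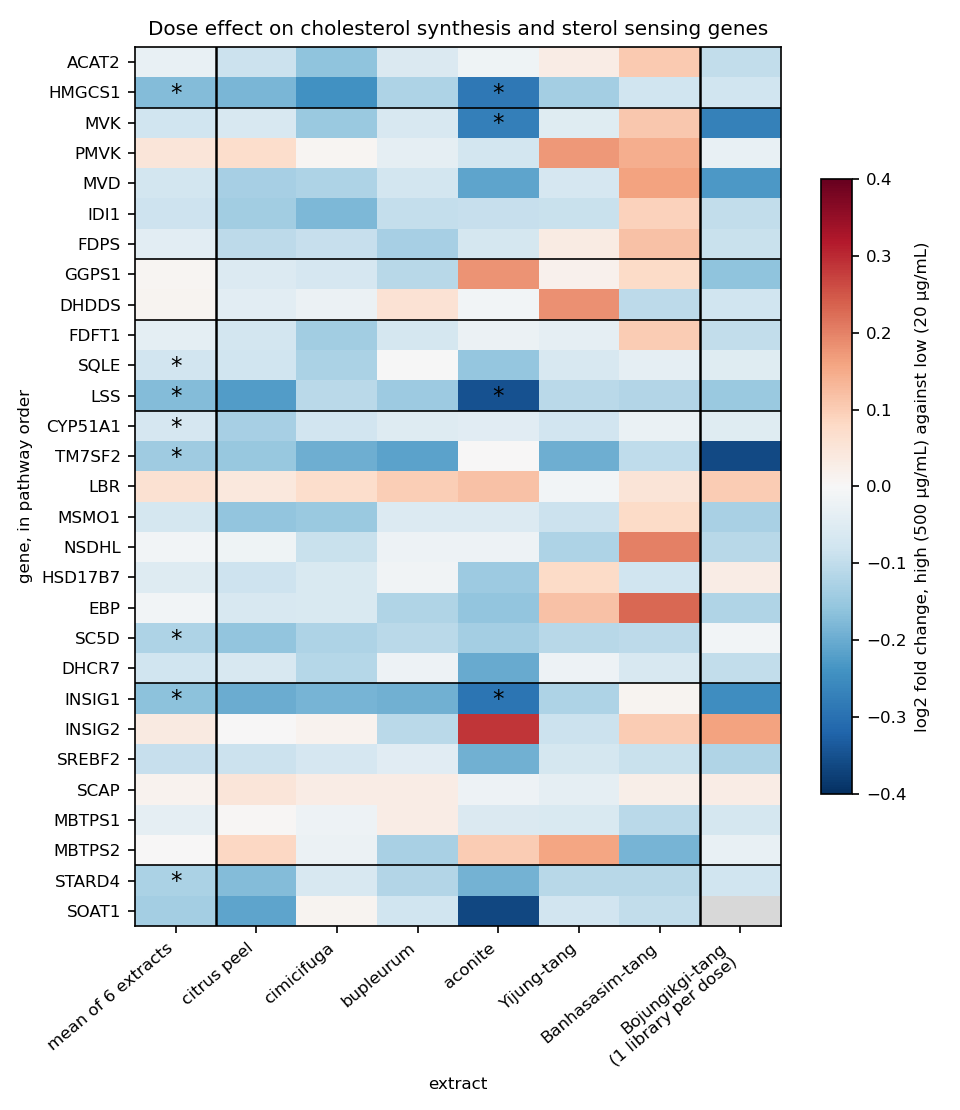
Log2 fold change of the high (500 µg/mL) against the low dose (20 µg/mL), blue for lower and red for higher at the high dose, for 29 genes in pathway order (rows) and, in columns, the mean of 6 extracts, each replicated extract and Bojungikgi-tang with its single libraries. Asterisks mark edgeR adjusted p under 0.05, which aconite reaches for HMGCS1, MVK, LSS and INSIG1, and grey marks a gene below 5 CPM.

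Extract by extract, aconite was the one with single genes past the threshold. Its high dose lowered 4 of the 29 genes relative to its low dose and raised 0, where 10.8% of all genes were called (5.04% lower and 5.81% higher). At an unadjusted p under 0.05 stood 13 genes, and DESeq2 called 5, with INSIG2 higher, both without the share over all genes. The 4 called in edgeR were LSS (-0.35 ± 0.05, edgeR adjusted p = 5.82e-06), INSIG1 (-0.29 ± 0.07, adjusted p = 0.00286), MVK, the mevalonate kinase (-0.27 ± 0.08, adjusted p = 0.0263), and HMGCS1 (-0.29 ± 0.09, adjusted p = 0.0394). LSS was 21.4% and INSIG1 18.3% lower. MVK had 44.5, 39.3 and 40.03 CPM at the high dose, against 51.1, 47.8 and 50.5 CPM at the low dose, with no overlap. In the same comparison the epithelial markers CEACAM5 (0.91 ± 0.12), CDH17 (0.34 ± 0.10) and KRT20 (0.22 ± 0.07) were higher and VIL1 (-0.26 ± 0.04) lower, and the fibroblast marker LUM was higher (0.94 ± 0.28) at no more than 2.63 CPM in any library. All 40 ribosomal protein genes had positive values (median 0.25, 3 called, 19 at unadjusted p under 0.05). Their part in the result was not tested. In all, 24 of 29 genes had negative values (49.0% of all genes) with a median of -0.07. Groups were separate for 7 genes lower (9.87% of all genes) and for 1 higher, LBR (also 9.87% of all genes). The high-dose libraries differed among themselves: the median over the 29 genes was -0.136, 0.007 and -0.162 log2 from the low-dose mean in replicates 1, 2 and 3. Without replicate 2 of the high dose the median was -0.157 and 7 genes were called (7.86% of all genes), among them IDI1, FDPS, ACAT2 and SC5D, and without the 4 libraries 11 (12.7%). The count was 8 without high 1 (18.2% of all genes), with 2 of them higher, and 2 without low 1 (7.28%), without low 3 (8.91%) and in set 6 alone (4.91%). LSS and INSIG1 were past the threshold each time. MVK was not without high 2, high 3, low 1 or low 3 (highest adjusted p = 0.108), nor HMGCS1 without high 1, high 3, low 1 or low 3 (highest adjusted p = 0.195).

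Citrus peel, cimicifuga and bupleurum had mostly negative values and no gene past the threshold. Citrus peel had 0 of 29 called (0.0667% of all genes; 6 genes at unadjusted p under 0.05), 23 negative values (50.4% of all genes), a median of -0.08, and 10 genes with all high-dose libraries below all low-dose ones (7.58% of all genes) and 0 above (7.81%). LSS was its gene nearest the threshold (-0.22 ± 0.05, edgeR adjusted p = 0.0817), and DESeq2 called it. Cimicifuga had 0 called in edgeR and DESeq2 (0.904% of all genes; 6 at unadjusted p under 0.05), 24 negative values (49.7% of all genes), a median of -0.09, and 10 genes separate and lower (8.6% of all genes) with LBR and SCAP higher (8.16%). Bupleurum had 0 called in both (0.297% of all genes; 3 at unadjusted p under 0.05), 25 negative values (50.9% of all genes), a median of -0.07, and 11 genes separate and lower (7.36% of all genes) with LBR higher (7.77%). In each of these 3 herbs the share of separate, lower genes was above the share over all genes. The same held with aconite and Yijung-tang, but not with Banhasasim-tang.

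Of the formulas, Yijung-tang had 0 called in edgeR and DESeq2 (0.103% of all genes; 2 at unadjusted p under 0.05), 21 negative values (50.4% of all genes), a median of -0.06, and 7 genes separate and lower (7.67% of all genes) with PMVK and DHDDS higher (8.22%). Banhasasim-tang had 0 called in both (0.231% of all genes; 4 at unadjusted p under 0.05), 14 negative values (50.2% of all genes), a median of 0.01, and 1 gene separate and lower, DHCR7 (6.41% of all genes), with NSDHL higher (7.24%). These values include high 2, which stood apart, and the count of negative values without it is not given here. By library, the median over the pathway genes was 0.029 (high 1), 0.034 (high 2) and -0.059 (high 3) log2 from the low-dose mean. FDFT1 had 198.7, 245 and 192 CPM at the high dose and 206.5, 194 and 191 CPM at the low dose. PMVK had 26.8, 42.0 and 21.9 CPM at the high dose and 27.1, 26.3 and 27.9 CPM at the low dose. For both genes only high 2 lay above all low-dose libraries. NSDHL had 77.9, 91.8 and 79.2 CPM at the high dose of Banhasasim-tang and 74.7, 67.00 and 74.1 CPM at the low dose (0.20 ± 0.07, adjusted p = 0.143). EBP, the sterol isomerase, had 90.6, 121 and 79.00 CPM at the high dose and 86.00, 80.9 and 79.7 CPM at the low dose, where replicate 2 was the high one. Without high 3 of Banhasasim-tang 4 genes were called, 3 of them higher. That run kept high 2, which stood apart, and its share over all genes is not given here. Ribosomal protein genes had 40 of 40 positive values with Banhasasim-tang (median 0.31) and 38 of 40 with Yijung-tang (median 0.10), and their part in these values was not tested.

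**Figure D4:**
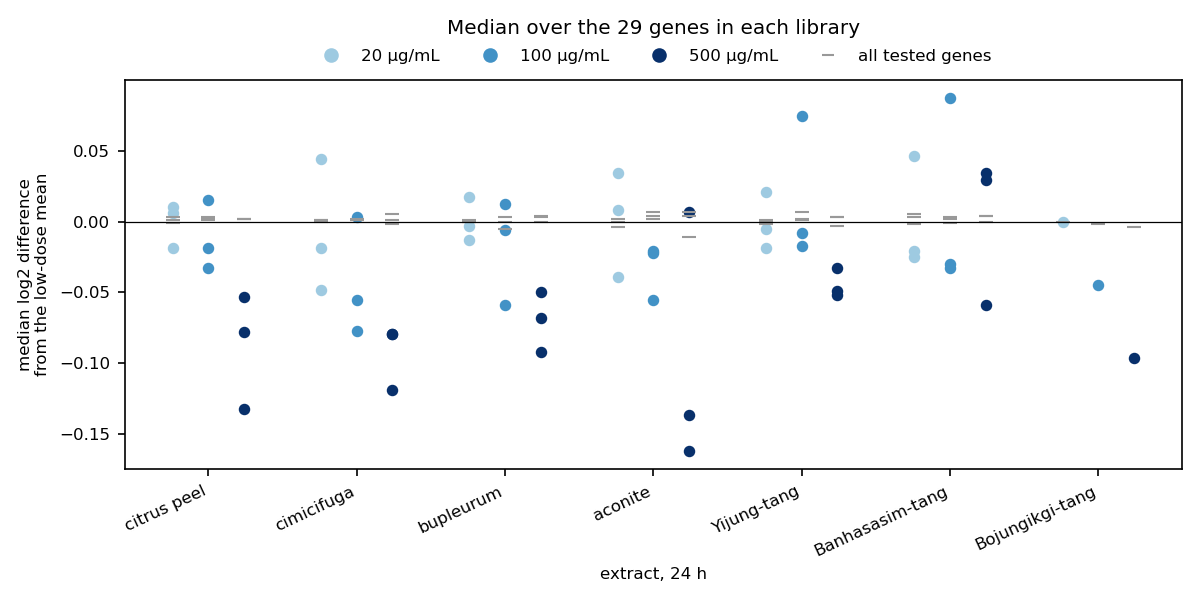
Median over the 29 genes of the log2 difference from the low-dose mean of the same extract (y axis) in each library, by extract (x axis) and dose (colour), with grey dashes for the median over all tested genes. High-dose points lie between -0.162 and -0.033 in citrus peel, cimicifuga, bupleurum, Yijung-tang and aconite except for aconite high 2 at 0.007, and between -0.059 and 0.034 in Banhasasim-tang.

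Whether the extracts differed in dose effect was tested directly. In an F test over the 6 extracts, 0 of the 29 genes passed (1.87% of all genes; 4 at unadjusted p under 0.05 in edgeR, DESeq2 not run), and the smallest adjusted p was 0.328, for LSS. Between extracts of one library set, 0 genes passed in edgeR and in DESeq2 for aconite minus bupleurum (1.8% of all genes; 5 at unadjusted p under 0.05), cimicifuga minus citrus peel (0.115%; 0) and Banhasasim-tang minus Yijung-tang (0%; 3). For LSS, aconite minus bupleurum was -0.20 ± 0.08 log2 (adjusted p = 0.229), and for INSIG1 the extracts spanned -0.29 to 0.01. So the calls of aconite were not shown to differ from the values of the other extracts.

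At the medium dose no gene of the pathway passed the test. In all 6 extracts 0 of the 29 genes were called against the low dose in edgeR and DESeq2, where all genes called came to 0.801% with aconite and 0% with each other extract. At unadjusted p under 0.05 were 3 genes with aconite, 2 with bupleurum, 1 each with Yijung-tang and Banhasasim-tang, and 0 with citrus peel and cimicifuga. Medians lay between -0.05 (aconite and cimicifuga) and 0.02 (Yijung-tang). SOAT1 with aconite had the largest difference, -0.44 ± 0.14 (adjusted p = 0.215), from levels of 2.95, 3.24 and 3.66 CPM at the medium dose and 4.54, 4.11 and 4.75 CPM at the low dose. Group means that fell from low to medium to high dose were found for 18 genes with citrus peel (20.7% of all genes), 17 with cimicifuga (20.1%), 15 with aconite (22.5%), 11 with bupleurum (12.9%), 8 with Banhasasim-tang (24.6%) and 7 with Yijung-tang (18.9%). Means that rose in this order were found for 13 genes with Banhasasim-tang (26.2% of all genes), 5 with Yijung-tang (19.7%), 4 with aconite (25.4%), 3 with citrus peel (22.1%), and 0 with cimicifuga (20.6%) and bupleurum (12.9%).

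Against vehicle the picture includes the change of library set. Aconite at the high dose had 7 of the 29 genes called, 6 lower and 1 higher (15.9% of all genes, 7.29% lower and 8.58% higher). LSS (-0.28 ± 0.05, edgeR adjusted p = 0.000176), INSIG1 (-0.31 ± 0.07, adjusted p = 0.000887) and MVK (-0.33 ± 0.08, adjusted p = 0.00521) were lower, as were HSD17B7, EBP and MVD, and LBR was higher (0.20 ± 0.06, adjusted p = 0.0165). INSIG1 had 149.99, 151 and 134 CPM with aconite, against 179.7, 180.3 and 179 CPM in vehicle, where the 3 libraries were very close. The count was 15 without aconite high 2 (17.7% of all genes) and 3 without vehicle 1 (12% of all genes), where MVK, EBP, MVD and LBR were lost, and 0 when aconite high and vehicle were fitted alone (1.24% of all genes). Cimicifuga at the high dose had 1 gene called, INSIG1 (-0.25 ± 0.07, adjusted p = 0.0475; 1.33% of all genes), a call lost without any of the vehicle libraries and without cimicifuga high 2 or 3.

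Citrus peel, bupleurum, Yijung-tang and Banhasasim-tang at the high dose had 0 called against vehicle in edgeR (0.0243%, 1.52%, 1.14% and 1.21% of all genes), with 13, 9, 5 and 3 genes at unadjusted p under 0.05. DESeq2 called INSIG1 with citrus peel and with bupleurum, MSMO1 with Yijung-tang and 0 with Banhasasim-tang. Median log2 fold changes of the 29 genes at the high dose were -0.15 with citrus peel, -0.13 with cimicifuga and bupleurum, -0.07 with aconite, -0.06 with Yijung-tang and -0.02 with Banhasasim-tang. Of the ribosomal protein genes, 40 of 40 were negative there with citrus peel (median -0.21) and with cimicifuga (-0.21), and 39 of 40 with bupleurum (-0.17). They were also negative at the low doses, with medians of -0.21 with citrus peel, -0.22 with cimicifuga and -0.18 with bupleurum, and their part in the result was not tested. At the low doses the medians of the 29 genes lay between -0.05 and 0.02, with members on both sides of 0. The low doses gave 1 call each for Yijung-tang (1.51% of all genes), the dolichol enzyme DHDDS (-0.24 ± 0.06, adjusted p = 0.0414), and for Banhasasim-tang (2.92%), EBP (-0.38 ± 0.10, adjusted p = 0.033). At unadjusted p under 0.05 stood 9 genes with each of these formulas, of which SC5D (0.22 ± 0.06 with Yijung-tang and 0.21 ± 0.06 with Banhasasim-tang), STARD4 (0.23 ± 0.08 and 0.27 ± 0.08) and MBTPS1 were on the higher side in both. DESeq2 called 3 with each. DHDDS was lost without vehicle 1 or 3 or any of its 3 Yijung-tang libraries, and EBP without vehicle 1 or any of its 3 Banhasasim-tang libraries. EBP had 86.00, 80.9 and 79.7 CPM with Banhasasim-tang, against 129, 96.5 and 95.8 CPM in vehicle, where replicate 1 was the high one. Low doses of citrus peel, cimicifuga, bupleurum and aconite had 0 called in edgeR and DESeq2 (0.00607%, 0%, 0.801% and 1.61% of all genes), with 2, 1, 3 and 0 genes at unadjusted p under 0.05. All these comparisons share the same 3 vehicle libraries.

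Bojungikgi-tang has no replicates, so its values carry no test. The mean reached 5 CPM for 28 of the 29 genes (not for SOAT1), and 24 of them had a lower log2 value (CPM + 1) in the high-dose than in the low-dose library (50.2% of all 10705 such genes), with a median of -0.09, against -0.001 over all genes. None of the 28 (0) passed 0.5 log2 in size, as 0.738% of all genes did. TM7SF2 had 35.5 CPM in the high-dose library and 45.7 CPM in the low-dose library (-0.36), MVK 40.9 and 49.5 CPM (-0.27), INSIG1 166 and 198 CPM (-0.25), and LSS 112 and 124 CPM (-0.15). These 4 genes also had negative values with each replicated single herb, except TM7SF2 with aconite (0.00). Of the replicated formulas, Yijung-tang gave negative values for all 4. Banhasasim-tang gave positive values for MVK (0.107 ± 0.087) and INSIG1 (0.012 ± 0.069) and negative ones for TM7SF2 and LSS. With Bojungikgi-tang, MVD (-0.23) and GGPS1 (-0.16) were also further below 0 than LSS. LBR was higher, at 217 CPM in the high-dose and 202 CPM in the low-dose library (0.10), and INSIG2 at 32.7 and 29.2 CPM (0.16). The medium-dose library lay between for INSIG1 and LSS, at 180.1 and 117 CPM, and 23 of 28 genes were below the low-dose library there (50.1% of all genes).

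Lists of neighbouring pathways held calls in both directions. Of 10 fatty acid genes under SREBP1, the relative of SREBP2, 3 fell in the mean of the 6 extracts and 0 rose (6.61% and 6.52% of all genes), and 9 of 10 were negative (50.1% of all genes; median -0.11): ACSS2, which activates acetate to acetyl-CoA (-0.28 ± 0.03, edgeR adjusted p = 1.12e-09), the desaturase SCD (-0.14 ± 0.04, adjusted p = 0.00925) and the phosphatidate phosphatase LPIN1 (-0.15 ± 0.05, adjusted p = 0.0271). ACSS2 also fell with citrus peel alone (-0.53 ± 0.07), cimicifuga (-0.32 ± 0.07) and Banhasasim-tang (-0.33 ± 0.08). Of 7 tested genes of sterol transport, the exporter ABCG1 rose (0.26 ± 0.05, adjusted p = 0.00049) and ABCA1 fell (-0.19 ± 0.06, adjusted p = 0.0242). ABCG1 differed between extracts (F test, adjusted p = 0.00223), with 0.87 ± 0.17 for cimicifuga minus citrus peel (adjusted p = 0.0113). Of 9 genes of sterol feedback and turnover, 2 rose and 1 fell at the high against the low dose of aconite (10.8% of all genes called), with 6 of 9 positive: ERLIN1 (0.16 ± 0.05, adjusted p = 0.0488), ERLIN2 (0.23 ± 0.07, adjusted p = 0.0307) and RNF145 (-0.17 ± 0.05, adjusted p = 0.0302). With cimicifuga 1 of the 9 rose, MYLIP (0.28 ± 0.07, adjusted p = 0.0298). Among 10 genes that use isoprenoids, such as farnesyltransferase subunits, 0 were called in the mean of the extracts in edgeR (5 at unadjusted p under 0.05), with 4 negative values.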

How the data were processed

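RNA of HT29 cells was sequenced from directional libraries (MGIseq, paired 100-base reads), per the labels' protocols. The tools named are RSEM 1.3.3, STAR 2.7.3a, Trim Galore 0.6.5 and FastQC 0.11.9, with the build GRCh38, per the submitters' processing notes. Which annotation and strand setting were used is not given in the sources. The deposited values are RSEM estimated counts of 60675 genes, of which 8.68% were not whole, and they were rounded. Of 270 columns, 60 were used and 210 were not. All 57 replicated libraries (19 groups) entered one fit with edgeR 4.0.16 (TMM scaling, filterByExpr, quasi-likelihood test), with Benjamini-Hochberg adjustment over 16484 genes per comparison and a threshold of 0.05. SEs were derived from the F statistic and are approximate. Bojungikgi-tang was described as log2(CPM + 1). Alternatives were DESeq2 1.42.0, its size factors, no filter, a replicate block, fits of fewer groups and leaving out libraries. Every same-numbered pair of replicates correlated above 0.1 in 1 of 24 comparisons, bupleurum medium against low dose (correlations 0.339, 0.171 and 0.237), taken from the data, and the block changed no call there. The fit was tested on simulated counts. The 29 genes and the lists were chosen with earlier results of these data known. By the rule set for the text, up to 8 genes with the smallest adjusted p past the threshold were named per comparison, the sensing and handling genes throughout, genes never past it with their level, and up to 3 called genes of each other list. LBR, NSDHL and genes just outside the threshold were singled out after their values were seen. The result of 1 list of pathway genes in the mean of the extracts is not reported here.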

Additional observations from a re-analysis of the deposited data

How the results depend on the processing

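Of the medians and the calls of single genes followed here, 0 were counted as reversed under an alternative run. Signs of single values that were not called were not followed. Of 416 alternatives to 28 medians of the 29 genes, 15 moved by more than the spread between replicates, and of 573 alternatives to 22 calls of single genes 108 lost the call. In the mean of the extracts the count of 8 became 15 without the 4 libraries that stood apart, 5 with aconite left out, and 2, 2 and 0 in sets 5, 6 and 7 alone, and leaving out single libraries gave 6 to 9. Leaving out extracts and fitting sets alone for this mean were chosen after seeing the data. The F test over extracts gave 1 gene without the 4 libraries and 0 to 1 when single libraries were left out. For high against low dose, citrus peel gave 1 with DESeq2, 1 without the 4 libraries, 1 in its set alone and 4 in its set with the replicate block. Cimicifuga gave 1 with the replicate block and 7 in its set with the block. Aconite gave 11 without the 4 libraries, 2 in its set alone and 2 to 8 without single libraries, and Banhasasim-tang 0 to 4. For high dose against vehicle, citrus peel gave 3 without the filter, 1 with the block, 1 with DESeq2 and 2 without the 4 libraries. Cimicifuga gave 2 with the block, 3 without the 4 libraries, 0 with replicates 1 and 2 of set 5, 0 with the compared groups alone and 0 to 1 without single libraries. Bupleurum gave 2 without the filter, 2 with the block, 1 with DESeq2 and 1 without the 4 libraries. Aconite gave 14 without the 4 libraries, 0 with the compared groups alone and 3 to 15 without single libraries. Yijung-tang gave 1 without the filter, 1 with the block, 1 with DESeq2 and 0 to 1 without single libraries. For low dose against vehicle, citrus peel and bupleurum gave 1 each without the filter. Yijung-tang gave 2 without the filter, 3 with DESeq2, 0 with the compared groups alone and 0 to 1 without single libraries, and Banhasasim-tang 3 without the filter, 2 with the block, 3 with DESeq2, 0 with the compared groups alone and 0 to 2 without single libraries. Aconite minus bupleurum gave 0 to 1 without single libraries. Apart from those stated further above, the shares of all genes called in these runs are not given, so the counts have no background. The cause of these shifts was not tested. Outside the comparison of bupleurum medium with low dose, not every same-numbered pair of replicates correlated above 0.1, though some did (0.307, 0.03 and 0.24 for citrus peel high and low dose). In set 5 the replicate 3 libraries also stood apart in RN7SL2, at 67.0 to 114 CPM, against 3.44 to 9.9 CPM in replicates 1 and 2. Whether the numbers pair the samples there is not known from the labels. DESeq2 was not run for the F test.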
